A study of Bos taurus with 30 samples.

Results

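Expression of 10 antiviral interferon-stimulated genes (ISGs) was followed in bovine endometrial epithelial and stromal cells cultured together under flow. They were the dynamin-like GTPases MX1 and MX2, the oligoadenylate synthetase genes OAS1X, OAS1Y and OAS1Z, the ubiquitin-like modifier ISG15, the radical SAM enzyme RSAD2 (viperin), and the RNA-binding proteins IFIT1, IFIT2 and IFIT3. These 10 members, of 27607 genes counted, were found by symbol, and each symbol matched 1 gene. In the RefSeq annotation 9 of the 10 were found by symbol and IFIT1 was not, so the genes beside IFIT1 are not given. The 10 members were chosen with reference to gene function and on measured values of these same libraries. The difference between 50 and 5 mM glucose was used in particular, so glucose differences are given as a description with no test. The 5 and 50 mM libraries also enter the cell type comparisons at those doses, which are likewise given without a test. The insulin libraries do not enter the glucose difference, but whether their values were also known at the choice is not stated. Their calls and p-values may therefore not be independent of the choice.

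In ruminants the conceptus releases interferon tau, a type I interferon, around the time of maternal recognition of pregnancy. Interferon binds the IFNAR1 and IFNAR2 receptor, JAK1 and TYK2 relay the signal by phosphorylation, and a complex that holds STAT2 and IRF9 activates ISGs in the uterus and in circulating leukocytes. The same genes respond to interferons made during viral infection and can also be expressed at a basal level when no interferon is added.

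The cells were isolated from the endometrium of early luteal cows that were not pregnant and were enriched for each type by differential plating, so neither population was pure. Epithelial cells grew in the upper chamber and stromal cells in the lower chamber of a microfluidic device, with a porous membrane between them, and medium flowed for 72 h. In one experiment the medium held 5 or 50 mM glucose. In the other it held vehicle (acetic acid in phosphate-buffered saline), 1 or 10 ng/mL insulin, all with 5 mM glucose. Each of the 10 groups had 3 replicates, no conceptus and no added interferon, and replicates were numbered alike in every group, though the labels do not say that libraries of the 2 cell types with 1 number came from the same device. The p-values and standard errors combine the spread between these replicates with the spread of other genes. A standard error can therefore be smaller than a gene's own 3 replicates would give.

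Library totals were 13493503 to 16647701 counted reads in the glucose experiment and 8826470 to 13214728 in the insulin experiment. A limit of 3 reads therefore lay at 0.180 to 0.222 and 0.227 to 0.340 CPM (a gene's reads per 1000000 counted reads of the library), and these limits and the intervals of ratios cover counting error only. Epithelial marker genes summed to 7587 to 15007 CPM in epithelial libraries and to 1.58 to 1336 CPM in 14 of the 15 stromal libraries. Stromal replicate 3 at 50 mM glucose stood apart, with 5282 CPM of epithelial markers and 21858 CPM of stromal markers against 62165 and 77829 CPM of stromal markers in the other 50 mM stromal libraries. Leukocyte markers, chiefly NCAM1, summed to 16.9 to 75.5 CPM in epithelial and to 184 to 608 CPM in stromal libraries. These sums do not describe the list as a whole. In vehicle devices 3 of the 6 leukocyte markers tested were higher in epithelial cells and 3 in stromal cells (median log2 difference 0.25). PTPRC, CD3E and ITGAX were not matched by symbol. The experiments were counted separately, so levels are compared within an experiment.

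In vehicle devices epithelial cells held more RNA of 8 of the 10 genes than stromal cells, and IFIT1 and IFIT3 were not called. A gene was called where edgeR's quasi-likelihood test with the replicate as a block gave a Benjamini-Hochberg adjusted p under 0.05 and a log2 fold change beyond 0.1. Of all 12876 protein-coding genes tested in vehicle devices, 28.2% were called higher in epithelial cells and 27.8% higher in stromal cells. The share of all genes whose groups did not overlap was not computed, so overlap is given below as a description. All 10 ISGs passed the low-count filter, and their median log2 difference between epithelial and stromal cells was 5.49 against -0.00 over all genes tested. In bulk RNA, fewer cells of a type and less RNA per cell cannot be told apart.

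The MX proteins assemble on viral nucleoprotein complexes. MX1 was at 103, 56.7 and 106 CPM in epithelial vehicle replicates 1, 2 and 3 and at 4.99, 1.36 and 1.95 CPM in the stromal libraries with the same replicate numbers. The lowest epithelial value was above the highest stromal value, and MX1 was 32.0-fold higher in epithelial cells (log2 5.00 ± 0.26 SE, adjusted p = 0.00091). MX2 was at 6.74, 14.7 and 11.8 CPM in the epithelial libraries, while the stromal libraries held 0, 2 and 0 MX2 reads. The groups did not overlap, MX2 was called (adjusted p = 0.0013), and the pooled ratio was 170 with a 95% counting interval of 46.6 to 1406.

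OAS1 enzymes make short oligoadenylates on sensing double-stranded RNA, which activate RNase L. OAS1X was at 18.3, 11.3 and 56.2 CPM in epithelial and at 0.700, 0.0905 and 0.758 CPM in stromal vehicle replicates. OAS1Y was at 42.3, 45.9 and 64.2 CPM in epithelial and at 1.66, 0.362 and 1.41 CPM in stromal vehicle replicates. OAS1Z was at 3.69, 5.79 and 14.9 CPM in epithelial cells, with 2, 0 and 1 reads in stromal cells. None of the OAS1 genes overlapped between cell types. OAS1X differed by 47.6-fold (log2 5.57 ± 0.34 SE, adjusted p = 0.00098) and OAS1Y by 42.2-fold (log2 5.40 ± 0.36 SE, adjusted p = 0.0011). OAS1Z was called as well (adjusted p = 0.0021), with a pooled ratio of 83.7 (95% counting interval 28.3 to 408). The 3 genes are close paralogs that lie side by side on chromosome 17, with OAS2 as the next gene. The division of reads among them may therefore be uncertain and was not examined. MX1 lies beside MX2 and IFIT2 beside IFIT3, and the division of their reads was not examined either.

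ISG15 is conjugated to newly made proteins in a ubiquitin-like cascade. It was at 13.7, 15.2 and 18.2 CPM in epithelial vehicle replicates and at 0.700, 0.181 and 0.217 CPM in stromal ones. Epithelial values varied little, did not overlap the stromal values and were 38.7-fold higher (log2 5.27 ± 0.41 SE, adjusted p = 0.0014). RSAD2, which converts CTP into a chain-terminating nucleotide, was at 16.1, 40.9 and 47.0 CPM in epithelial cells with 0, 2 and 0 reads in stromal cells. RSAD2 was thus close to unread in the stroma, and its pooled ratio was 528 (95% counting interval 146 to 4365, adjusted p = 0.00090).

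The IFIT proteins bind viral RNA ends and hinder translation, and here the 3 genes differed from each other. IFIT2 resembled the genes above, with 3.53, 8.47 and 11.4 CPM in epithelial cells and 2, 1 and 0 reads in stromal cells (pooled ratio 79.5, 95% counting interval 26.9 to 388, adjusted p = 0.0024). IFIT1 was at 33.6, 42.4 and 49.3 CPM in epithelial and at 117, 129 and 38.8 CPM in stromal vehicle replicates. Its stromal replicates 1 and 2 were above every epithelial library while replicate 3 was within their range, and the log2 difference of epithelial minus stromal was -1.13 ± 0.44 (SE, adjusted p = 0.084). Without replicate 3 the IFIT1 difference was -1.71 on the log2 scale with an adjusted p of 0.0048, and with all replicates it was called lower by DESeq2 (adjusted p = 0.029) and by edgeR without the replicate block (adjusted p = 0.037). IFIT3 was at 2.12, 5.37 and 6.94 CPM in epithelial and at 2.80, 1.99 and 0.108 CPM in stromal cells. These ranges overlapped (log2 difference 1.45 ± 0.92 SE, adjusted p = 0.24).

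**Figure D1:**
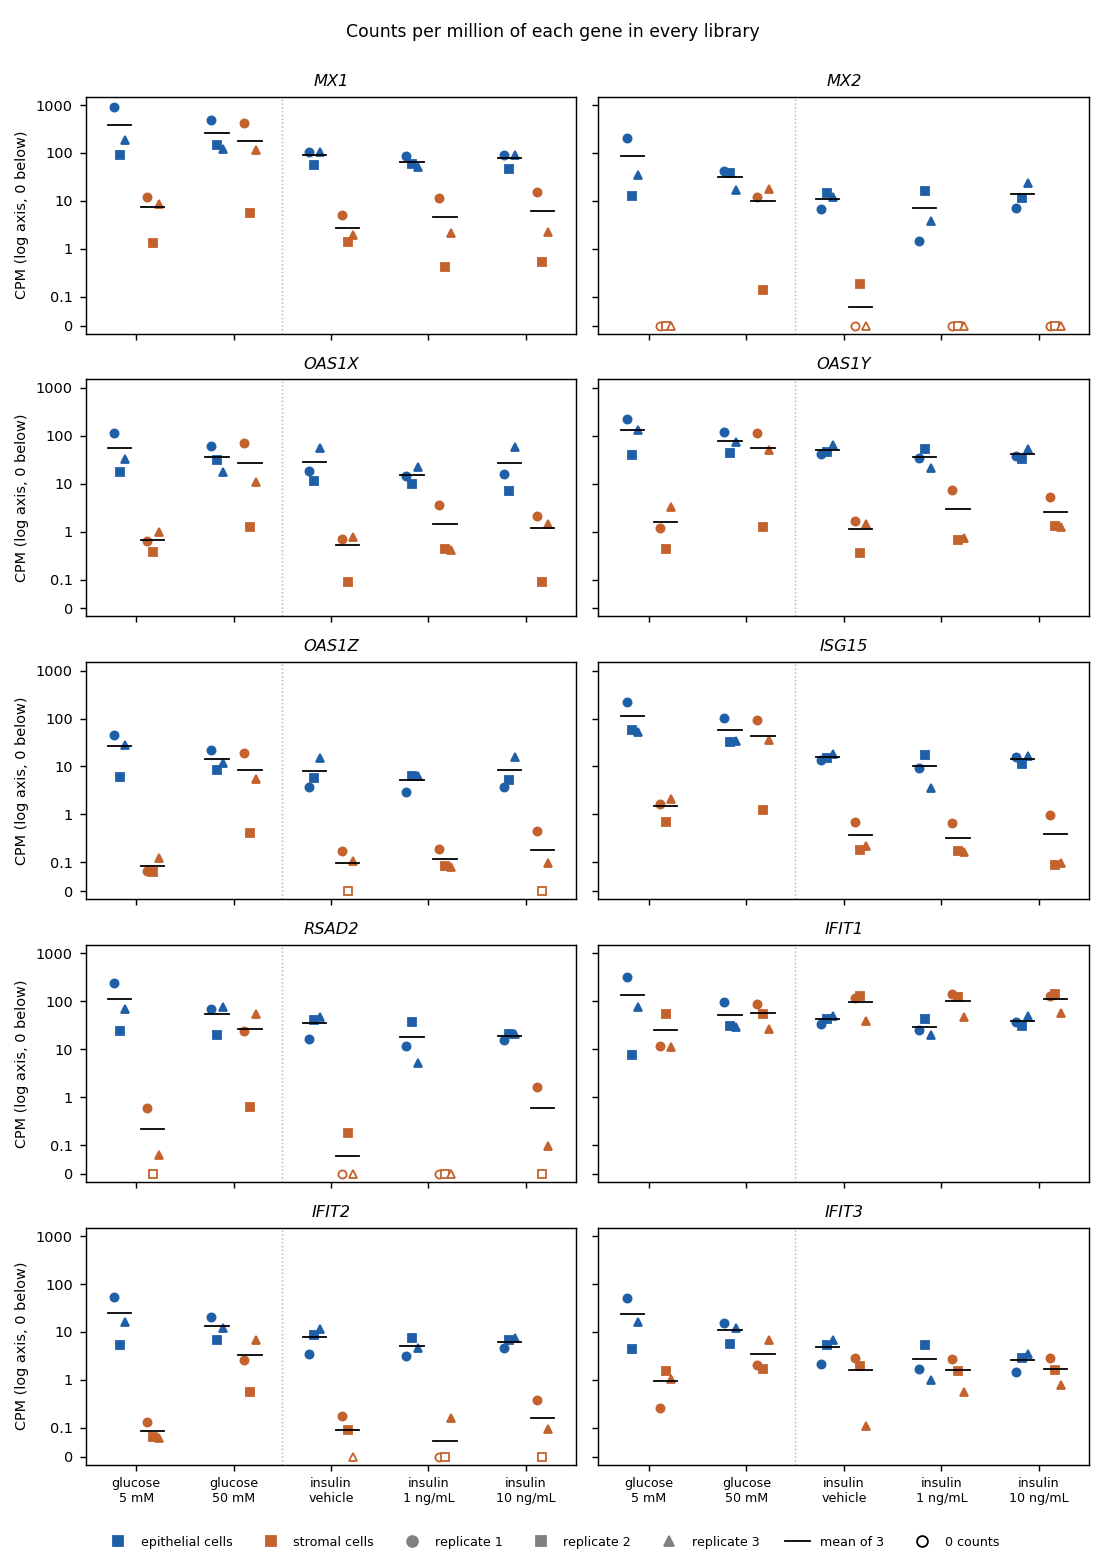
CPM on a log axis of each of the 10 genes in all 30 libraries, with 1 point per replicate, a line at the mean of 3 and open points for 0 counts, by cell type and treatment. Stromal RSAD2, MX2, OAS1Z and IFIT2 are at 1.66 CPM or lower outside 50 mM glucose, whereas stromal IFIT1 reaches 129 CPM in vehicle devices.

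With 1 ng/mL insulin the same 8 genes were called higher in epithelial cells and IFIT1 was called lower. The background was 29.9% of genes called higher and 29.5% called lower in epithelial cells. No RSAD2 or MX2 read was counted in the 3 stromal libraries at this dose, against 11.5, 36.4 and 5.17 CPM of RSAD2 and 1.49, 16.3 and 3.78 CPM of MX2 in the epithelial libraries, so RSAD2 was at least 68.6-fold and MX2 at least 27.9-fold higher. The called genes with more than 3 stromal reads in all, ISG15, MX1 and the OAS1 genes, were 11.6- to 38.1-fold higher. IFIT1 was at 24.7, 43.6 and 20.1 CPM in epithelial and at 143, 121 and 46.6 CPM in stromal replicates. All stromal values exceeded all epithelial values, and IFIT1 was 3.60-fold lower in epithelial cells (log2 -1.85 ± 0.25 SE, adjusted p = 0.0021). IFIT3 differed by 0.59 ± 0.55 on the log2 scale (SE, adjusted p = 0.39).

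With 10 ng/mL insulin 8 genes were again called higher in epithelial cells, beside 27.3% of all genes, and IFIT1 was called lower, beside 27.6%. Stromal MX2 again had no read, and MX2 was at 7.02, 11.8 and 23.8 CPM in epithelial cells, at least 54.8-fold higher. Stromal RSAD2 was counted in replicate 1, with 22 reads or 1.66 CPM, and was at 0 and 1 reads in replicates 2 and 3. Epithelial markers in these stromal libraries summed to 285, 1.58 and 27.7 CPM, and the vehicle stromal library with 2 RSAD2 and 2 MX2 reads held 310 CPM of them, whose part in these reads was not tested. Epithelial RSAD2 was 15.6, 20.8 and 21.1 CPM, a 31.2-fold difference (log2 4.97 ± 0.89 SE, adjusted p = 0.0097). IFIT1 was at 37.0, 30.2 and 48.7 CPM in epithelial and at 128, 142 and 57.6 CPM in stromal replicates, which did not overlap (log2 -1.54 ± 0.40 SE, adjusted p = 0.029). The IFIT1 call was lost without replicate 1 (adjusted p = 0.11) or replicate 2 (adjusted p = 0.081). IFIT1 made up 81.5% to 97.5% of all reads of the 10 genes in stromal insulin-experiment libraries and 12.8% to 17.3% in the epithelial ones.

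At 5 mM glucose, in the other experiment, the stromal libraries were 1 arm of the difference that chose the genes, so the cell type values there are a description with no test. Of all genes, 10.8% were called higher and 10.7% lower in epithelial cells. By highest over lowest, epithelial replicates lay further apart than in any insulin-experiment group, except for OAS1X and ISG15. OAS1X spanned 6.54-fold here and 8.44-fold at 10 ng/mL insulin, and ISG15 4.18-fold here and 4.78-fold at 1 ng/mL. Replicate 1 was highest for every gene. MX1 was at 904, 89.5 and 184 CPM in epithelial and 11.9, 1.32 and 8.66 CPM in stromal libraries. MX2 was at 208, 12.5 and 35.3 CPM in epithelial libraries with no stromal read, at least 450-fold higher. The MX genes did not overlap between the cell types although their epithelial replicates were far apart. RSAD2 was at 243, 23.7 and 69.7 CPM in epithelial cells, with 9, 0 and 1 reads in stromal cells (log2 8.98 ± 0.61 SE). IFIT1 was at 329, 7.56 and 75.1 CPM in epithelial and 11.6, 54.3 and 10.9 CPM in stromal libraries, and IFIT3 was at 51.1, 4.37 and 16.0 CPM in epithelial and 0.261, 1.51 and 1.04 CPM in stromal libraries. IFIT1 overlapped between the cell types and was lower in epithelial than in stromal replicate 2 (log2 1.89 ± 1.73 SE, and -0.21 without replicate 1), whereas IFIT3 did not overlap (log2 3.88 ± 1.15 SE).

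**Figure D2:**
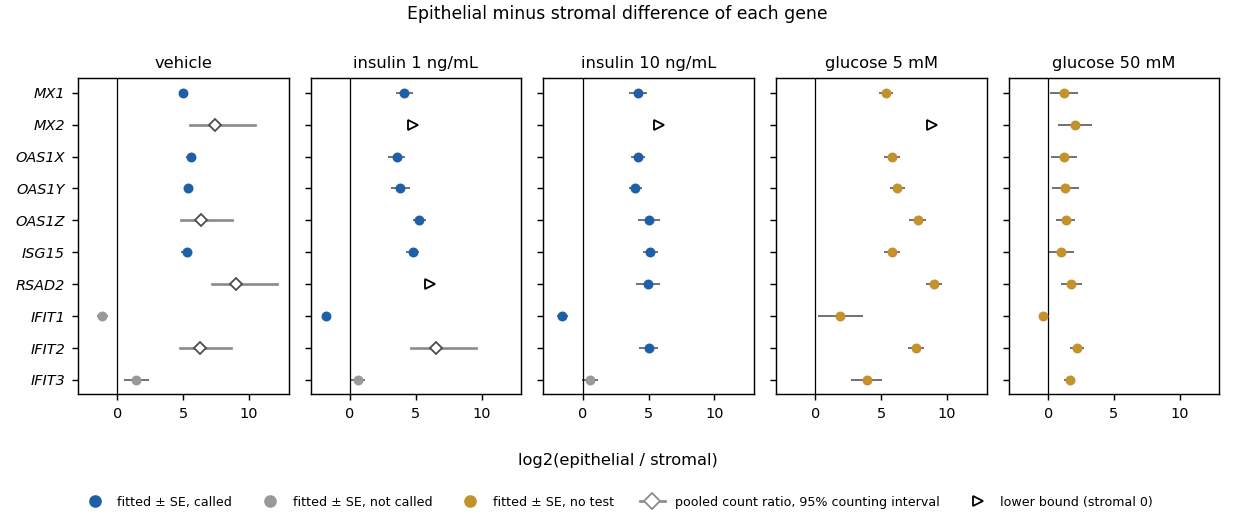
Log2 ratio of epithelial to stromal levels of each gene at each treatment: circles are fitted values with 1 standard error (blue called, gray not called, ocher with no test), diamonds pooled count ratios with 95% counting intervals, and triangles lower bounds where no stromal read was counted. IFIT1 lies below 0 in the insulin experiment, and at 50 mM glucose the median of the 10 genes is 1.31.

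At 50 mM glucose the libraries were the other arm of that difference, and the cell type values are again given with no test, beside 6.57% of all genes called higher and 11% called lower in epithelial cells. The replicates were unlike each other. The median log2 difference over the 10 genes was 0.23 in replicate 1, 4.68 in replicate 2 and 0.52 in replicate 3. MX1 was at 500, 146 and 124 CPM in epithelial and 419, 5.66 and 118 CPM in stromal replicates. Epithelial and stromal MX1 were therefore close in replicates 1 and 3 and far apart in replicate 2, and without replicate 2 the fitted log2 difference went from 1.21 to -0.01. IFIT2 was at 20.7, 6.91 and 12.1 CPM in epithelial and at 2.63, 0.546 and 6.77 CPM in stromal libraries. It was the 1 gene of the 10 without overlap (log2 2.18 ± 0.55 SE).

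Between 5 and 50 mM glucose, stromal levels of all 10 genes were higher at 50 mM in 3 of 3 replicates. The genes were chosen from this difference, and it is given without a test. No protein-coding gene of 13035 was called in this comparison by edgeR (0%), 646 had an unadjusted p under 0.05, and DESeq2 called 173. Of the 10 genes, 6 passed the low-count filter in the stromal glucose libraries.

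Stromal MX1 went from 11.9, 1.32 and 8.66 CPM at 5 mM to 419, 5.66 and 118 CPM at 50 mM. Stromal ISG15 went from 1.63, 0.692 and 2.07 CPM to 91.8, 1.23 and 36.3 CPM. In both genes the rise was larger in replicates 1 and 3 (log2 5.13 and 3.77 for MX1, 5.82 and 4.13 for ISG15) than in replicate 2 (2.10 and 0.83), and the 50 mM range overlapped the 5 mM range only through replicate 2. Stromal OAS1X went from 0.652, 0.377 and 0.976 CPM to 71.0, 1.23 and 10.6 CPM. Stromal OAS1Y went from 1.17, 0.440 and 3.23 CPM to 115, 1.23 and 51.5 CPM. OAS1X thus did not overlap between doses and OAS1Y did. The fitted log2 differences were 3.79 for MX1, 4.03 for ISG15, 4.36 for OAS1X and 4.49 for OAS1Y.

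Genes that were almost unread at 5 mM gained reads. Stromal RSAD2 had 9, 0 and 1 reads at 5 mM and 378, 9 and 774 at 50 mM, a pooled ratio of 123 (95% counting interval 66.4 to 256). Stromal MX2 had no read at 5 mM and 194, 2 and 252 at 50 mM, at least 52.3-fold higher. Stromal OAS1Z had 1, 1 and 2 reads at 5 mM and 304, 6 and 79 at 50 mM (pooled ratio 103, 95% counting interval 39.8 to 379). In each of these genes replicate 2 at 50 mM was again the lowest of its group. Stromal IFIT2 had 2, 1 and 1 reads at 5 mM and 42, 8 and 98 at 50 mM. Stromal IFIT1 went from 11.6, 54.3 and 10.9 CPM to 86.4, 55.1 and 26.4 CPM, a fitted log2 difference of 1.31, and IFIT3 from 0.261, 1.51 and 1.04 CPM to 2.00, 1.71 and 6.90 CPM, a fitted log2 difference of 1.79. IFIT1 and IFIT3 were thus nearly level between doses in replicate 2, at log2 differences of 0.02 and 0.18.

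Epithelial marker genes were also higher in the stromal libraries at 50 mM. Of the 15 markers, all 15 lay above 0, with a median log2 difference of 4.76 against -0.03 over all genes, and the 15 stromal markers lay below 0, with a median of -0.54. As a percent of the epithelial library of the same replicate, the 10 ISGs had a median of 85.0, 3.90 and 70.0 in stromal replicates 1, 2 and 3 at 50 mM, and the epithelial markers had a median of 17.0, 6.16 and 65.2. In replicate 1 the ISG median was above the range of all 15 markers, which was 12.5 to 24.2, and in replicate 3 it was within their range of 46.0 to 77.8. At 5 mM the ISG medians were 0.520, 1.21 and 2.68 percent and the marker medians 6.82, 0.00889 and 0.0705 percent. Whether epithelial cells in the stromal libraries took part in the ISG values was not tested. Without replicate 3, the library that stood apart, the fitted log2 differences of the 6 genes were 4.48 for MX1, 4.93 for ISG15, 5.91 for OAS1X, 5.87 for OAS1Y, 1.35 for IFIT1 and 1.14 for IFIT3, and the marker medians were higher at 50 mM in the remaining replicates too.

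**Figure D3:**
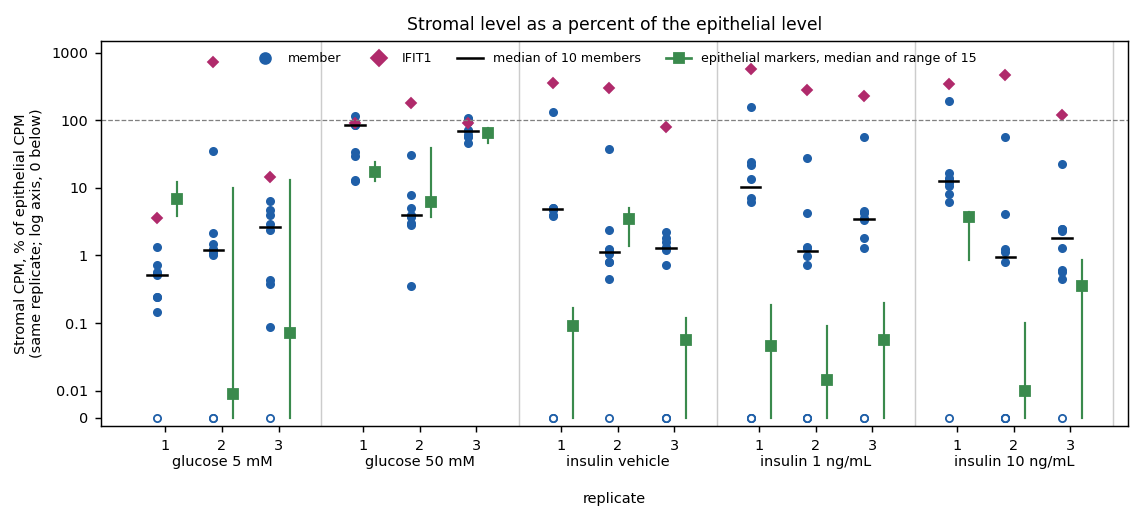
Level in each stromal library as a percent of the epithelial library of the same replicate, on a log axis, with points for the 10 ISGs (IFIT1 as diamonds), lines at their median, open points for 0, and green squares and bars for the median and range of 15 epithelial marker genes. At 50 mM glucose the ISG medians are 85.0, 3.90 and 70.0 percent and the marker medians 17.0, 6.16 and 65.2 percent.

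In epithelial cells the fitted difference between 50 and 5 mM glucose was below 0 for all 10 genes, also given without a test. The median was -0.58 on the log2 scale against 0.01 over all genes. The 15 stromal markers all lay above 0 in the same epithelial libraries, with a median log2 difference of 0.71, and their part in the ISG values was not tested. No gene of 13055 was called by edgeR (0%), 201 had an unadjusted p under 0.05, and DESeq2 called 0. The replicates did not move together. The median over the 10 genes was -1.23 in replicate 1, 0.41 in replicate 2 and -0.78 in replicate 3. ISG15 was the only member lower in 3 of 3 replicates, from 222, 56.3 and 53.1 CPM to 104, 33.1 and 33.1 CPM (fitted log2 -0.84), and its ranges overlapped. Epithelial IFIT1 went from 329, 7.56 and 75.1 CPM to 94.3, 30.2 and 28.6 CPM, and MX2 from 208, 12.5 and 35.3 CPM to 41.2, 38.5 and 16.7 CPM. In both genes the spread at 5 mM was wider than at 50 mM, and replicate 2 moved upward. Without replicate 1 the fitted log2 differences were 0.24 for IFIT1, 0.23 for MX2 and 0.03 for MX1.

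Insulin was tested against vehicle within each cell type, and the 1 and 10 ng/mL comparisons share the vehicle libraries. In epithelial cells at 1 ng/mL all 10 genes had a fitted log2 difference below 0, with a median of -0.65 against 0.00 over all genes. None was called by edgeR, beside 0% of 12464 protein-coding genes, although 10 of the 10 and 358 of the 12464 had an unadjusted p under 0.05, and DESeq2 called 0. The counts depended on the replicate, with 6 members called without replicate 1 (of 22 called among 12689 genes), 10 without replicate 2 (of 27 among 12669) and 0 without replicate 3 (of 4 among 12472). When every gene with at least 1 read was kept, edgeR called 8 members of 18 genes called among 15454.

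RSAD2 in epithelial cells was at 16.1, 40.9 and 47.0 CPM with vehicle and at 11.5, 36.4 and 5.17 CPM with 1 ng/mL insulin. It was lower in each pair, by most in replicate 3, where the log2 difference was -3.18, and the ranges overlapped (fitted log2 -1.02 ± 0.27 SE, adjusted p = 0.96). OAS1X, at 18.3, 11.3 and 56.2 CPM with vehicle, was at 14.6, 9.92 and 22.1 CPM with 1 ng/mL insulin. It too was lower in 3 of 3 pairs with overlapping ranges (log2 -0.78 ± 0.14 SE, adjusted p = 0.24). IFIT2, at 3.53, 8.47 and 11.4 CPM with vehicle, was at 3.18, 7.38 and 4.57 CPM, lower in 3 of 3 pairs (log2 -0.60 ± 0.19 SE, adjusted p above 0.99). MX1, MX2, OAS1Y, OAS1Z, ISG15, IFIT1 and IFIT3 were each lower in replicates 1 and 3 and slightly higher in replicate 2. ISG15, for example, was at 13.7, 15.2 and 18.2 CPM with vehicle and at 9.25, 17.1 and 3.58 CPM with 1 ng/mL insulin. The median pair difference over the 10 genes was -0.33 in replicate 1, 0.05 in replicate 2 and -1.47 in replicate 3.

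At 10 ng/mL insulin RSAD2 was the 1 member called in epithelial cells, beside 0.113% of 12373 genes (14). RSAD2 was at 15.6, 20.8 and 21.1 CPM against 16.1, 40.9 and 47.0 CPM with vehicle. The 10 ng/mL values overlapped vehicle replicate 1, and the pair differences were -0.04, -0.97 and -1.16 on the log2 scale. The fitted difference was a 1.76-fold decrease (log2 -0.82 ± 0.11 SE, adjusted p = 0.00017). RSAD2 was not called by DESeq2 (log2 -0.74, adjusted p = 0.99994) or by edgeR without the replicate block (log2 -0.85, adjusted p = 0.999999), and it was called without any 1 replicate.

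OAS1Y, MX1 and IFIT3 were also lower at 10 ng/mL in 3 of 3 pairs without passing the test. How many of all genes were lower in 3 of 3 pairs was not computed. OAS1Y was at 37.3, 32.5 and 53.9 CPM against 42.3, 45.9 and 64.2 CPM with vehicle (log2 -0.31 ± 0.07 SE, adjusted p = 0.052). MX1 was at 92.8, 46.5 and 91.2 CPM against 103, 56.7 and 106 CPM (log2 -0.22 ± 0.05 SE, adjusted p = 0.080). IFIT3 was at 1.45, 2.83 and 3.46 CPM against 2.12, 5.37 and 6.94 CPM (log2 -0.89 ± 0.21 SE, adjusted p = 0.10). The ranges of all of them overlapped vehicle. OAS1Y was called with DESeq2 size factors (adjusted p = 0.047), and OAS1Y and IFIT3 were called without replicate 1, so that 3 members including RSAD2 were called, of 32 genes called among 12610. MX2, which had a log2 difference of 0.34 ± 0.16 (SE, adjusted p = 0.69), was called higher without replicate 2 (log2 0.68), so that 2 members including RSAD2 were called, of 68 genes called among 12680. The other 5 genes lay between -0.30 and 0.02 on the log2 scale, and the median of the 10 was -0.17 against -0.00 over all genes.

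**Figure D4:**
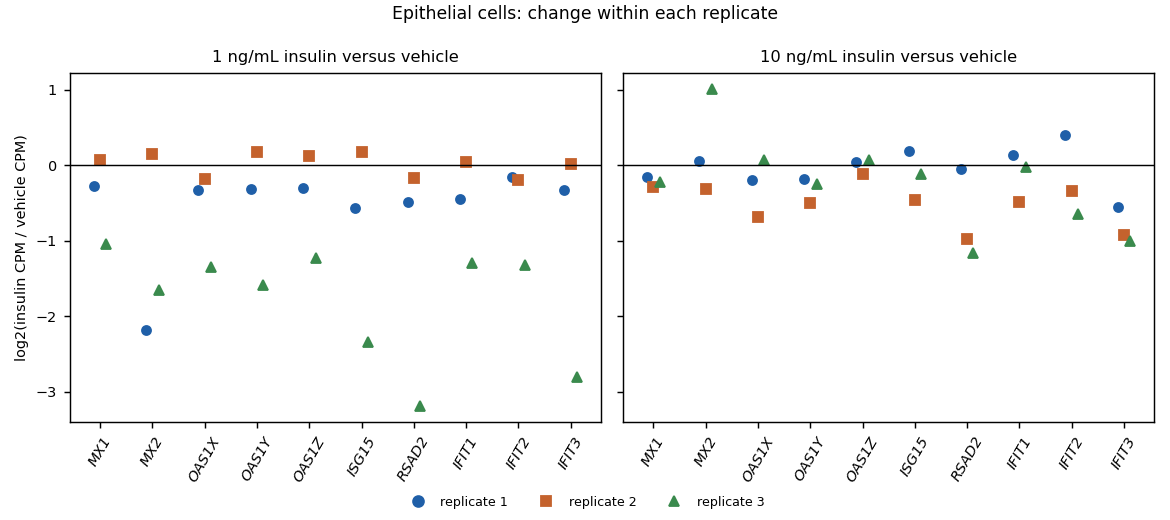
Log2 difference from vehicle of each gene in epithelial cells at 1 and 10 ng/mL insulin, 1 point per replicate pair. At 1 ng/mL the replicate 3 points reach -3.18 for RSAD2 while replicate 2 lies near 0, and at 10 ng/mL the points lie between -1.16 and 1.01.

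Between the 10 and 1 ng/mL doses in epithelial cells no member was called by edgeR or DESeq2, beside 0% of 12396 genes. An unadjusted p under 0.05 was found for 3 of the 10, beside 532 of the 12396 genes. The fitted difference of 10 minus 1 ng/mL was above 0 for 9 of the 10, with a median of 0.36. The replicate medians were 0.39, -0.51 and 1.38, so replicates 1 and 3 went up and replicate 2 down. Without replicate 2, 3 members were called (of 3 genes among 12610), and without replicate 1, 2 members (of 19 genes among 12616). Without replicate 3, 3 of the 10 lay above 0. OAS1X kept an order of replicates across doses, with replicate 3 highest (22.1 to 59.3 CPM), replicate 1 between (14.6 to 18.3 CPM) and replicate 2 lowest (7.02 to 11.3 CPM).

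In stromal cells only 4 of the 10 genes, MX1, OAS1Y, IFIT1 and IFIT3, had enough reads to be tested at 1 and 10 ng/mL insulin against vehicle, and OAS1X was the fifth between the doses. None was called by edgeR or DESeq2 at 1 ng/mL (0% of 12228 genes), at 10 ng/mL (0% of 12290) or between the doses (0.0244% of 12281, or 3 genes). The members with an unadjusted p under 0.05 were 1, 2 and 0, beside 615, 336 and 452 of all genes in these comparisons. There was 1 member called at 1 ng/mL without replicate 3 (of 93 genes called among 12324), 1 at 10 ng/mL without replicate 2 (of 75 among 12409), and 1 between the doses without replicate 1 (of 44 among 12312). Stromal MX1 was at 4.99, 1.36 and 1.95 CPM with vehicle, at 11.6, 0.424 and 2.18 CPM with 1 ng/mL and at 15.4, 0.526 and 2.21 CPM with 10 ng/mL. It was higher with insulin in replicates 1 and 3 and lower in replicate 2. Epithelial markers summed to 9.10, 310 and 5.20 CPM in the stromal vehicle replicates, 6.67, 1.78 and 7.26 CPM at 1 ng/mL and 285, 1.58 and 27.7 CPM at 10 ng/mL. The markers were likewise lower with insulin in replicate 2 and higher in replicate 3. In replicate 1 they were higher at 10 ng/mL but lower at 1 ng/mL, where MX1 was higher. Their part in the MX1 values was not tested. Stromal IFIT1, at 117, 129 and 38.8 CPM with vehicle, was at 143, 121 and 46.6 CPM and at 128, 142 and 57.6 CPM. The replicate 3 library was lowest at each dose.

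The effect of insulin was also compared between epithelial and stromal cells by an interaction term. No member was called by edgeR at 1 ng/mL, beside 0.659% of 13357 genes, or at 10 ng/mL, beside 0% of 13308. DESeq2 called 0 members at both doses. An unadjusted p under 0.05 was found for 4 and 6 of the 10, beside 894 of the 13357 and 539 of the 13308 genes. At 1 ng/mL edgeR called 2 members without replicate 3 (of 153 genes called among 13400), 1 without replicate 2 (of 2 among 13442) and 4 when every gene with at least 1 read was kept (of 270 among 15639). At 10 ng/mL it called 1 without replicate 2 (of 166 among 13426). The 88 genes called at 1 ng/mL with all replicates included 13 of the 15 epithelial markers. A difference in insulin response between the cell types was thus not detected for these genes.

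The rest of the pathway was read in vehicle devices at the cell type contrast. Its lists were drawn up by role, with earlier results of these data known. Of all genes tested there, 28.2% were called higher and 27.8% lower in epithelial cells. Of 9 receptor and kinase genes 5 were called higher in epithelial cells and 1 lower, with a median log2 difference of 0.44. JAK1, a receptor-bound kinase, differed by 0.18 (adjusted p = 0.28), and IFNGR2, a chain of the interferon gamma receptor, was lower in epithelial cells by log2 -0.86 (adjusted p = 0.0028). Of 7 transcription factors 6 were called higher, with a median of 1.34. IRF7, which amplifies interferon transcription, was higher by log2 3.30 (adjusted p = 0.00091), and IRF9, the partner of STAT2, by 1.34 (adjusted p = 0.0020). STAT2 was higher by 0.42 (adjusted p = 0.016) but was not called without any 1 replicate, with adjusted p of 0.073, 0.064 and 0.063. Each of these differences was below the 5.00 of MX1.

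Most enzymes that attach or remove ISG15 were higher in epithelial cells too. Of 5 such genes 4 were called higher in epithelial cells, with a median log2 difference of 2.34. HERC6, an ISG15 ligase, differed by 3.81 (adjusted p = 0.0018), USP18, which removes ISG15, by 3.41 (adjusted p = 0.0013), and UBA7, the activating enzyme, by 2.34 (adjusted p = 0.0084). UBE2L6, the conjugating enzyme, differed by 0.15 (adjusted p = 0.65). HERC5 differed by 0.47 (adjusted p = 0.034) and was not called by DESeq2 (adjusted p = 0.075) or without any 1 replicate (adjusted p 0.14, 0.11 and 0.066). Of 7 sensors of viral RNA or DNA and their adaptors 5 were called higher and 1 lower (median 1.18), with DHX58, a helicase, at 4.16 (adjusted p = 0.00091) and MAVS, the mitochondrial adaptor, at 0.08 (adjusted p = 0.50). Of 3 negative regulators 1 was called higher, PTPN2, a phosphatase, by 0.86 (adjusted p = 0.0026), and PIAS1, a SUMO ligase, differed by -0.24 (adjusted p = 0.11). Of 20 other interferon-responsive genes 15 were called higher and 1 lower (median 2.85), and CMPK2, a nucleotide kinase next to RSAD2 on chromosome 11, differed by 1.58 (adjusted p = 0.0057). IFIT5 differed by -0.16 (adjusted p = 0.33) and LGALS3BP, a secreted glycoprotein, by 0.26 (adjusted p = 0.21). Of 14 interferon ligands only IFNE was matched by symbol, and it did not pass the low-count filter.

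No gene of these lists was called in an insulin comparison within a cell type. At 1 ng/mL in epithelial cells 19 of 20 other interferon-responsive genes lay below 0, with a median of -0.21 on the log2 scale. Of these 20 genes 7 had an unadjusted p under 0.05, beside 358 of all 12464 genes. At 10 ng/mL their median was -0.07.

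Across all 30 libraries the members were compared as log2(CPM + 1), centered within each cell type of each experiment, which leaves in the differences between glucose doses, insulin doses and replicates. Against the mean of the other 9, Pearson's r was 0.832 to 0.919 for 8 members, 0.699 for IFIT3 and 0.570 for IFIT1. IFIT1 was thus the member least like the rest within cell types as well as between them. Among 13353 other genes with a mean of at least 1 CPM, the genes most like the mean of the members were USP18 (r = 0.962), DDX58 (0.943), UBA7 (0.907), EPSTI1 (0.904), PARP14 (0.895), PARP9 (0.890) and TRIM34 (0.888), followed by 1 gene without a symbol (0.871). The libraries share treatments and replicate numbers, and the glucose differences that chose the members enter these values, so they are a description.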

How the data were processed

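Total RNA of 30 cultures was sequenced as stranded single-end libraries. Per the study's methods, the authors trimmed reads with Cutadapt, filtered them by quality, mapped them with Rsubread (bovine genome, Ensembl release 96), kept unique alignments and counted genes with featureCounts; the submitters' processing notes also name FastQC, SAMtools and DESeq2. The strand setting of counting is not given in the sources used here. The deposited values were raw counts per gene, in 1 table for each experiment. A further 13 comparison tables hold the authors' fold changes and p-values, which were not used; their gene names and biotypes were.

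CPM was the count divided by the library total and scaled to 1000000 reads. Each comparison was fitted to its own 6 libraries (12 for the interaction) across all genes with edgeR 4.0.16 in R 4.3.3, with TMM normalization, filterByExpr, a quasi-likelihood test and Benjamini-Hochberg adjustment over all genes tested; shares of genes called are over protein-coding genes. The replicate number was a block, because the study analyzed treatments as pairs. Correlations of the deviations of same-numbered libraries were 0.209 to 0.762 between glucose doses, 0.251 to 0.864 between insulin doses and 0.0322 to 0.527 between cell types, where they were weakest. A call needed an adjusted p under 0.05 and a log2 fold change beyond 0.1. Where a group had no read a fold was computed against 3 reads in each of its libraries. Where it had 1 to 3, or the gene did not pass the low-count filter, any ratio given is of pooled counts, with an exact 95% interval. Named genes were the 10 members, the 2 genes of each pathway list with the highest mean CPM, genes on which a member's role depends (STAT2, IRF9, USP18, UBA7, UBE2L6, CMPK2), and the 8 genes most like the members; 1 gene that this rule names is not reported here. The members and lists were chosen with earlier results of these data known. Alternatives were DESeq2 size factors, no low-count filter, no block, DESeq2 1.42.0 and leaving out each replicate. The scripts were tested on simulated data. Replicates differed beyond sampling noise (chi-square per degree of freedom at least 16.3). No sequence is shown.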

Additional observations from a re-analysis of the deposited data

Results flagged for a closer look

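ISG15 moved in opposite directions in the 2 cell types between 5 and 50 mM glucose. Its mean log2 difference over the 3 replicate pairs was -0.85 in epithelial cells, lower in 3 of 3 pairs, and 3.59 in stromal cells, higher in 3 of 3 pairs. The difference between the cell types was not tested, because the glucose differences were among the values that chose the genes, and epithelial marker genes were also higher in the stromal libraries at 50 mM.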

How the results depend on the processing

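The calls were recomputed with DESeq2 size factors, without the low-count filter, without the replicate block, with DESeq2's Wald test and without each replicate. At vehicle, 1 and 10 ng/mL insulin the same 8 members remained higher in epithelial cells under each. In epithelial cells 1 ng/mL insulin gave 8 calls without the filter and 0 to 10 without 1 replicate. At 10 ng/mL DESeq2 size factors gave 2 calls (of 15 among 12373 genes) and no filter gave 4 (of 41 among 15439). There were 0 with no replicate block, 0 with DESeq2 and 1 to 3 without 1 replicate (of 7 to 68 genes called). Between the doses there were 4 without the filter (of 16 among 15427 genes) and 0 to 3 without 1 replicate. In stromal cells each insulin comparison gave 0 to 1 without 1 replicate. Between cell types at the glucose doses no calls are given, because those libraries chose the genes. The interaction at 1 ng/mL gave 4 without the filter and 0 to 2 without 1 replicate, and at 10 ng/mL 0 to 1. The cause was not tested.

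Some directions turned when 1 replicate was left out. At 10 ng/mL insulin in epithelial cells the log2 difference ran from -0.19 to 0.68 for MX2, -0.25 to 0.026 for ISG15, -0.068 to 0.073 for OAS1Z and -0.21 to 0.049 for IFIT1. Between cell types it ran from -0.22 to 1.36 (1 ng/mL) and -0.11 to 1.27 (10 ng/mL) for IFIT3, from -0.21 to 3.56 for IFIT1 at 5 mM glucose, and at 50 mM from -0.011 to 2.23 for MX1 and -0.15 to 1.97 for ISG15. With few stromal reads, 6 of the 10 genes did not pass the filter when insulin was compared with vehicle in stromal cells. They were thus tested there only without the filter, where 0 members were called. A decrease from so few reads would hardly be detectable at this depth.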
